A study of Homo sapiens with 4 samples.

Results

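The nuclear-encoded subunits of respiratory complexes II to V were examined in TE5 cells depleted of the nucleoporin NUP153. The group comprised 39 genes chosen by symbol: succinate dehydrogenase (SDH), cytochrome bc1 complex (UQCR and CYC1), cytochrome c (CYCS), cytochrome c oxidase (COX) and ATP synthase (ATP5) genes. All 39 were found among the 56657 rows of the count table, and all 39 passed the filter on low counts that left 16817 genes for testing.

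RNA sequencing covered 4 bulk libraries of TE5, an established line from a squamous cell carcinoma of the esophagus. In 2 libraries the cells carried a control short hairpin RNA (shControl) and in 2 a hairpin RNA against NUP153 (shNUP153), a protein of the nuclear basket of the nuclear pore. Cells of both groups were infected with lentivirus, selected with puromycin, and labelled as day 7. The comparison asks which transcripts differ when NUP153 is depleted. No label states that the replicates of a group were infected or grown apart. The p-values therefore cover only the spread among these 4 samples, which may be technical. The shNUP153 libraries are described with the endings g1 and g2, and no source used here says whether they carry different hairpins.

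Oxidative phosphorylation passes electrons through complexes in the inner mitochondrial membrane to oxygen, pumps protons across that membrane, and uses the gradient to make ATP. Complex II takes electrons from succinate, complex III passes them from ubiquinol to cytochrome c, complex IV passes them from cytochrome c to oxygen, and complex V is the ATP synthase. Most subunits are encoded in the nucleus and imported, while a few core subunits of complexes III, IV and V are encoded by mitochondrial DNA.

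Total counts were 22606593 and 27396268 in the shControl libraries and 25247932 and 23396626 in the shNUP153 libraries. NUP153 (ENSG00000124789) was lower in both shNUP153 libraries, at 67.9 and 81.9 CPM (counts scaled to library size) against 148.9 and 141.6 CPM, a 1.94-fold fall (log2 fold change −0.96, SE 0.06, adjusted p = 1.05e-14). The squamous regulator TP63 was expressed, and the summed level of 12 squamous markers ran from 3263 to 3341 CPM in shControl and from 3674 to 3699 CPM in shNUP153. SFN, S100A2 and KRT17 were the most abundant of these in shControl, at 787, 778 and 734 CPM. KRT14 was near 0, at 0.39 CPM in both groups, and was not tested. Of 11 squamous markers tested, 4 fell and 1 rose, with a median log2 fold change of −0.09. The falls were KRT5, from 24.4 to 15.3 CPM, SOX2, KRT6A and PKP1. The marker that rose was KRT17, from 734 to 1245 CPM, and the other 11 markers summed to 2518 and 2617 CPM in shControl and 2422 and 2460.2 CPM in shNUP153. Markers of other cell types were near 0: 8 fibroblast markers summed to between 0.541 and 0.713 CPM in shControl and 0.617 to 1.18 CPM in shNUP153, with 2 at 0 throughout, and 7 leukocyte markers to between 5.68 and 5.74 CPM in shControl and 7.02 to 7.38 CPM in shNUP153. Most of the leukocyte sum was ITGAM, which rose from 4.96 to 6.48 CPM (adjusted p = 0.0477), and its call was lost without any 1 of the 4 libraries (adjusted p from 0.0717 to 0.186). In bulk RNA, fewer cells of a type and less RNA per cell cannot be told apart.

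Most respiratory subunit transcripts were modestly lower in the shNUP153 libraries. Of the 39 genes, 22 fell (56.4%), 1 rose (2.56%) and 16 did not pass the test, by edgeR's quasi-likelihood test with Benjamini-Hochberg adjustment. Over all 16817 tested genes, 32.4% were called in either direction, 17.4% lower and 15.0% higher. The log2 fold changes of the 39 genes, shNUP153 over shControl, ran from −0.53 for COX5B to 0.16 for ATP5PD, with 34 negative and 5 positive. Their median was −0.17, against 0.005 over all tested genes. Their summed level was 5165 and 5166 CPM in shNUP153 against 5890 and 6016 CPM in shControl, so the groups did not overlap and the shNUP153 libraries were nearly equal. For 29 genes both shNUP153 libraries lay below both shControl libraries, for 3 both lay above, and for 7 the groups overlapped. Such separation was seen in 32.2% of all tested genes on the lower side and in 32.2% on the higher side.

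Of the 22 falls, 15 passed the threshold under each of 12 alternative analyses, and the other 7 are named with their complexes. With total counts in place of trimmed-mean (TMM) scaling, the median over all tested genes moved from 0.005 to 0.07 and the share of all calls that were higher from 46.3% to 62.8%. Under that scaling, 19 of the 39 genes fell and 3 rose, with a median of −0.10.

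**Figure D1:**
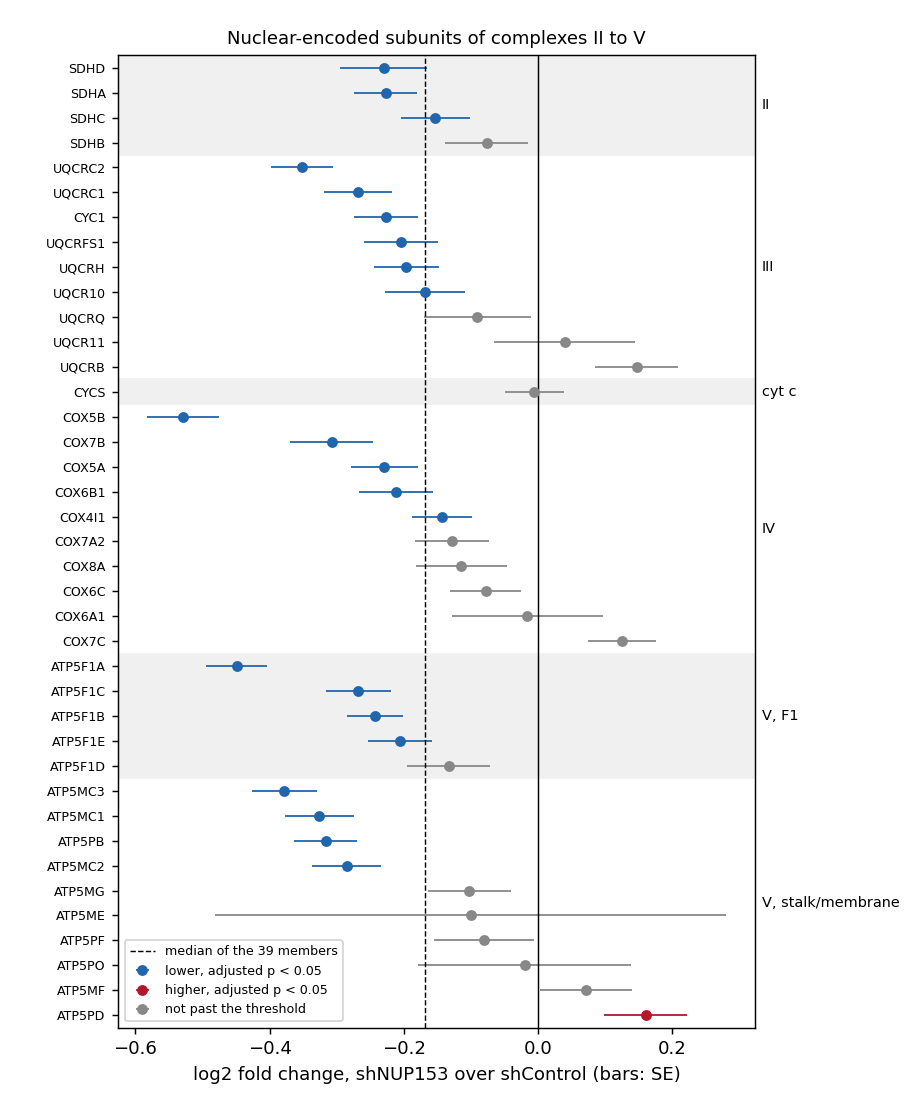
Log2 fold change (shNUP153 over shControl, horizontal axis) of the 39 subunit genes, grouped by complex, with bars of 1 SE and a dashed line at their median of −0.17. Blue points fell, the red point (ATP5PD) rose and grey points did not pass the threshold; COX5B at −0.53 and ATP5F1A at −0.45 lie farthest to the left.

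The 39 genes are mostly abundant transcripts, and abundance moved with the result. When all tested genes were ranked by mean CPM and divided into deciles, 14 of the 39 were in the highest decile (131 CPM or more). Of these 14, 13 fell and 0 rose, where 42.4% of all genes in that decile fell and 16.3% rose. CYCS was the gene of that decile that did not pass the test. In the eighth and ninth deciles lay 19 of the genes, of which 9 fell and 1 rose, where 28.3% of all genes there fell and 19.0% rose. None of the 6 genes below the eighth decile passed the test, and 2 of these, ATP5ME and ATP5PO, had the widest standard errors (0.38 and 0.16). Over all tested genes 32.4% were called in either direction. No share for all genes below the eighth decile is given here, so this count is not read as a trait of the 6 genes. Across the 39 genes, the log2 fold change and log10 mean CPM correlated at Pearson r = −0.395 and Spearman rho = −0.544, a description over genes that share the same libraries. The part of abundance in the result was not tested.

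**Figure D2:**
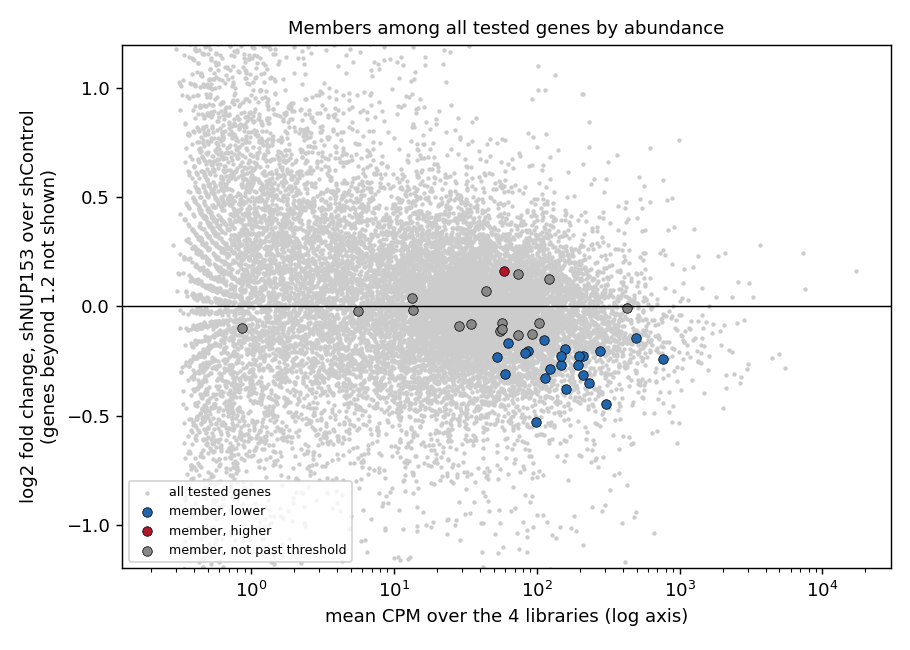
Log2 fold change (vertical axis, values beyond 1.2 not drawn) against mean CPM over the 4 libraries (log axis) for all tested genes (small grey points) and the 39 subunit genes (large points). Blue points, which fell, gather at the right, where the highest decile of genes begins at 131 CPM.

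Length was compared in the same way, with the coding length of one GENCODE v29 transcript per gene. Of 14 genes with coding sequences over 500 nt, 11 fell and 0 rose, with a median log2 fold change of −0.23. Of 25 genes at or under 500 nt, 11 fell and 1 rose, with a median of −0.11. Among all tested coding genes, 21.3% of those over 500 nt fell and 16.7% rose, and 17.8% of those at or under 500 nt fell and 16.5% rose. Long coding sequences belong to large subunits such as SDHA, the UQCRC core proteins and the ATP synthase α and β chains. The genes of all these subunits were also in the highest decile of abundance, so for them length, abundance and role went together. Length and abundance did not go together in every gene. UQCRH and COX5A, under 500 nt, were in that decile, and SDHB and ATP5PO, over 500 nt, were below it. The part of each in the result was not tested.

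Promoter windows of 300 bases, from 250 before to 50 after each transcription start in RefSeq (GRCh38.p14), were found for 31 of the 39 genes. They were searched on both strands for 3 short motifs of factors known to act on respiratory genes: GCGCATG (core of the NRF1 site), CCGGAAG (core of the site of ETS factors such as GABP) and AAGATGG (core of the YY1 site). The NRF1 core was in 9 of the 31 windows (29%), against 4.67% of 27305 windows of all genes and 7.25% of the windows of tested coding genes. The ETS core was in 14 (45.2%), against 10.7% and 18.5%. The YY1 core was in 9 (29%), against 6.06% and 7.27%. Among windows of the 18 genes that fell, 4 held the NRF1 core, 5 the ETS core and 3 the YY1 core. Among windows of the 13 genes that did not fall, 5 held the NRF1 core, 9 the ETS core and 6 the YY1 core. A match is a description of letters, not a site in use.

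Exon-free upstream stretches of 4 genes are printed 5′ to 3′ on the gene's strand, with motif matches in capitals, because they span the range of responses. COX5B (chr2:97645812-97646039, plus strand) had the largest fall, COX7B (chrX:77899218-77899437, plus strand) fell with no match, ATP5PD (chr17:75046986-75047183, minus strand) rose, and UQCR11 (chr19:1605491-1605712, minus strand) did not pass the test.
COX5B: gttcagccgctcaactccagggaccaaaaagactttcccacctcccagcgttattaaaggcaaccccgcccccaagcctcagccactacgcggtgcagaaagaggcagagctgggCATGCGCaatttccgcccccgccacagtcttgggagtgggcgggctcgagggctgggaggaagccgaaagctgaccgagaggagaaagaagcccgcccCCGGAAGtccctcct
COX7B: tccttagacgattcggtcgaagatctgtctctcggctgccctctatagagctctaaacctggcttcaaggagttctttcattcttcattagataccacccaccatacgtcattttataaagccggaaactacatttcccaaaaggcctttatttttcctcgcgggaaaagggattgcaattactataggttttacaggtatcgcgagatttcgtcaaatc
ATP5PD: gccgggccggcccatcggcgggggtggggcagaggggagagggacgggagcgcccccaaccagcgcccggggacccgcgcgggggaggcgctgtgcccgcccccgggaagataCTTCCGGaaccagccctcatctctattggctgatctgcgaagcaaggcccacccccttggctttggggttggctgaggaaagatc
UQCR11: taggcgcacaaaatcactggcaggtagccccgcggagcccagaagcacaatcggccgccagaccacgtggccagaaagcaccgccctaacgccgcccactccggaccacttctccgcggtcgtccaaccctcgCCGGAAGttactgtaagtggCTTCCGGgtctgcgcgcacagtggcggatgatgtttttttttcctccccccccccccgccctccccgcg
In COX5B the capitals mark an NRF1 core on the minus strand that begins 135 bases before the start and an ETS core on the plus strand at 37 bases before it. ATP5PD held 1 ETS core, at 101 bases before the start on the strand opposite the gene. UQCR11 held ETS cores on both strands, at 117 and 97 bases before the start. The ETS letters thus stood before a gene that fell, a gene that rose and a gene that did not pass the test.

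Complex II, which is also the succinate dehydrogenase of the tricarboxylic acid (TCA) cycle, had 3 of 4 subunits lower and none higher, with a median log2 fold change of −0.19. SDHA (ENSG00000073578), the flavoprotein that oxidises succinate, was at 231 and 225 CPM in shControl and 193 and 197 CPM in shNUP153. Both shNUP153 libraries were lower, a 1.17-fold fall (log2 fold change −0.23, SE 0.05, adjusted p = 2.36e-04). SDHD, a membrane anchor, was at 55.1 and 58.7 CPM against 46.5 and 50.7 CPM (log2 fold change −0.23, adjusted p = 0.00607). SDHC, the other anchor, was at 116 and 119 CPM against 105 and 107 CPM (log2 fold change −0.15, adjusted p = 0.022). The groups were separate for both anchors, with narrower gaps than for SDHA. SDHB, the iron-sulfur subunit, did not pass the test (log2 fold change −0.08, adjusted p = 0.378), although its libraries did not overlap.

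Leaving out shNUP153 replicate 1 ended the call of SDHD (adjusted p = 0.204) and left SDHA as the 1 gene of complex II that passed. The call of SDHC was lost on leaving out either shNUP153 library (0.205 for replicate 1, 0.126 for replicate 2) or shControl replicate 2 (0.0585), and with total-count scaling, cyclic loess scaling or DESeq2. Rows for pseudogenes named after SDHA, mostly SDHAP1, held 27.2% and 27.5% as many counts as SDHA itself in shControl and 31.9% and 33.8% in shNUP153. Counts of SDHAP1 alone were 1321 and 1565 for shControl and 1501 and 1476 for shNUP153, so part of the SDHA reads could have been assigned to them.

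Complex III had 6 of 9 subunits lower and none higher, with a median log2 fold change of −0.20. UQCRC2 (ENSG00000140740), a core protein, was at 266 and 259 CPM in shControl and 205 and 206 CPM in shNUP153. Its shNUP153 libraries were nearly identical and well below both controls, a 1.28-fold fall (log2 fold change −0.35, SE 0.05, adjusted p = 1.95e-07). UQCRC1, the other core protein, was at 159 and 166 CPM against 140.1 and 130.3 CPM (log2 fold change −0.27, adjusted p = 8.25e-05). CYC1, the cytochrome c1 that hands electrons to cytochrome c, was at 209 and 215 CPM against 179.6 and 183 CPM (log2 fold change −0.23, adjusted p = 2.84e-04). UQCRH, the hinge protein, was at 169 and 170.4 CPM against 147 and 149.6 CPM (log2 fold change −0.20, adjusted p = 0.00184). In all 4 of these genes both knockdown libraries lay below both controls.

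UQCRFS1, the Rieske iron-sulfur protein, fell by 0.20 on the log2 scale (adjusted p = 0.00385), and the small subunit UQCR10 fell by 0.17 (adjusted p = 0.0287). The remaining small subunits did not pass the test: UQCRQ had a log2 fold change of −0.09, UQCR11 of 0.04 and UQCRB of 0.15. UQCRB was higher in both shNUP153 libraries, at 73.0 and 83.5 CPM against 68.8 and 72.3 CPM (adjusted p = 0.0671). It passed as higher with total-count scaling (adjusted p = 0.00527), cyclic loess scaling (0.0225) and a minimum mean of 5 CPM (0.0206), without shControl replicate 2 (0.027) and without shNUP153 replicate 1 (0.0426). Calls were lost for UQCRFS1 without shNUP153 replicate 1 (0.0763) or 2 (0.0654), for UQCRH without shNUP153 replicate 1 (0.072), and for UQCR10 on leaving out either shNUP153 library (0.177 and 0.183) or shControl replicate 2 (0.124) and with total-count scaling (0.198), cyclic loess scaling (0.0796) or DESeq2 (0.101). Without shNUP153 replicate 1, 3 genes of complex III passed as lower.

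CYCS, the mobile electron carrier between complexes III and IV, stood at 424 and 429 CPM in shControl and 428 and 422 CPM in shNUP153. Its libraries overlapped and its log2 fold change was −0.005 (SE 0.04, adjusted p = 0.948). It was the third most abundant of the 39 genes by mean CPM, so a change of the size seen in its neighbours of the chain was measurable here.

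Complex IV had 5 of 10 nuclear subunits lower and none higher, with a median log2 fold change of −0.14. COX5B (ENSG00000135940), a subunit on the matrix side, was at 116 and 119 CPM in shControl and 81.7 and 81.1 CPM in shNUP153. Both knockdown libraries were far below the controls, a 1.44-fold fall and the largest of the 39 genes (log2 fold change −0.53, SE 0.05, adjusted p = 7.01e-10). COX7B, a small membrane subunit, was at 68.0 and 65.0 CPM against 52.7 and 54.7 CPM (log2 fold change −0.31, adjusted p = 1.45e-04). COX5A, which like COX5B faces the matrix, was at 160.5 and 160.1 CPM against 139 and 134 CPM (log2 fold change −0.23, adjusted p = 4.1e-04). COX6B1, a subunit on the intermembrane side, was at 89.3 and 87.6 CPM against 76.4 and 76.3 CPM (log2 fold change −0.21, adjusted p = 0.00308). The groups were separate for all 4, and the spread within groups was small beside the gap.

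COX4I1, a subunit with a regulatory role and among the most abundant of the group at 506 and 532 CPM in shControl, was at 479.7 and 461 CPM in shNUP153 and fell by 0.14 on the log2 scale (adjusted p = 0.0116). The other small subunits did not pass: COX7A2 had a log2 fold change of −0.13, COX8A of −0.11, COX6C of −0.08 and COX6A1 of −0.02. COX7C was higher in both shNUP153 libraries, at 126 and 127 CPM against 115 and 117 CPM (log2 fold change 0.13, adjusted p = 0.0559), and passed as higher with total-count scaling (adjusted p = 0.00342), cyclic loess scaling (0.00705) and a minimum mean of 5 CPM (0.0149). COX6B1's call was lost without shNUP153 replicate 1 (0.0626) or 2 (0.0637) and that of COX4I1 without shNUP153 replicate 2 (0.198) and with total-count (0.173) or cyclic loess scaling (0.431), so 3 genes of complex IV passed as lower without shNUP153 replicate 2. Without shControl replicate 1, COX7A2 (0.0198) and COX8A (0.0226) passed as lower.

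The F1 part of ATP synthase, the catalytic head in the matrix, had 4 of 5 subunits lower and none higher, with a median log2 fold change of −0.24. ATP5F1A (ENSG00000152234), the α chain, was at 355 and 349 CPM in shControl and 255 and 261 CPM in shNUP153. Both knockdown libraries were far below the controls, a 1.37-fold fall (log2 fold change −0.45, SE 0.04, adjusted p = 5.9e-10). ATP5F1B, the catalytic β chain and the most abundant of the 39 genes by CPM, went from 822 and 826 CPM to 697 and 696 CPM, a fall of 0.24 on the log2 scale (adjusted p = 1.63e-05). The γ chain gene ATP5F1C, which encodes the rotating shaft, fell by 0.27 (adjusted p = 4.19e-05), and ATP5F1E, the ε chain, fell by 0.21 (adjusted p = 8.88e-04). ATP5F1D, the δ chain, did not pass (log2 fold change −0.13, adjusted p = 0.0975), but did without shControl replicate 1 (0.0016).

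The stalk and membrane parts had 4 of 10 subunits lower and 1 higher, with a median log2 fold change of −0.10. The falls included all 3 genes for subunit c, whose ring turns in the membrane and whose genes encode the same mature protein behind different import sequences. ATP5MC3 (ENSG00000154518) was at 182 and 183 CPM in shControl and 141 and 139 CPM in shNUP153, a 1.30-fold fall (log2 fold change −0.38, adjusted p = 1.14e-07). ATP5MC1 was at 126 and 127 CPM against 99.7 and 103 CPM (log2 fold change −0.33, adjusted p = 5.5e-06), and ATP5MC2 fell by 0.29 (adjusted p = 3.72e-05). ATP5PB, subunit b of the peripheral stalk, was at 236 and 232 CPM against 187 and 188 CPM (log2 fold change −0.32, adjusted p = 1.58e-06). For these 4 genes both knockdown libraries lay below both controls.

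ATP5PD (ENSG00000167863), subunit d of the same stalk, was the 1 gene that rose, at 53.6 and 58.0 CPM in shControl and 62.1 and 62.8 CPM in shNUP153. The groups did not overlap and the rise was 1.12-fold (log2 fold change 0.16, SE 0.06, adjusted p = 0.0441). It was close to the threshold, and the call was lost with DESeq2 (0.134), without the filter on low counts (0.116), and on leaving out either shNUP153 library (0.206 and 0.252) or shControl replicate 1 (0.262). In GENCODE v29, ATP5PD lies wholly inside KCTD2 on the opposite strand, and KCTD2 rose from 40.7 to 47.9 CPM (log2 fold change 0.23, adjusted p = 0.00673; 0.172 without shNUP153 replicate 1). The overlap was taken between whole gene spans, introns included, and no strand of counting is given. Whether reads of the 2 genes could be mixed is therefore not known. The other stalk and membrane genes did not pass: ATP5PF had a log2 fold change of −0.08, ATP5PO of −0.02, ATP5MF of 0.07 and ATP5MG of −0.10. ATP5ME, subunit e, had only 18 to 23 counts per library (log2 fold change −0.10, SE 0.38). At such counts a fall of the size seen in its partners was not detectable. Why its counts were low was not tested.

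**Figure D3:**
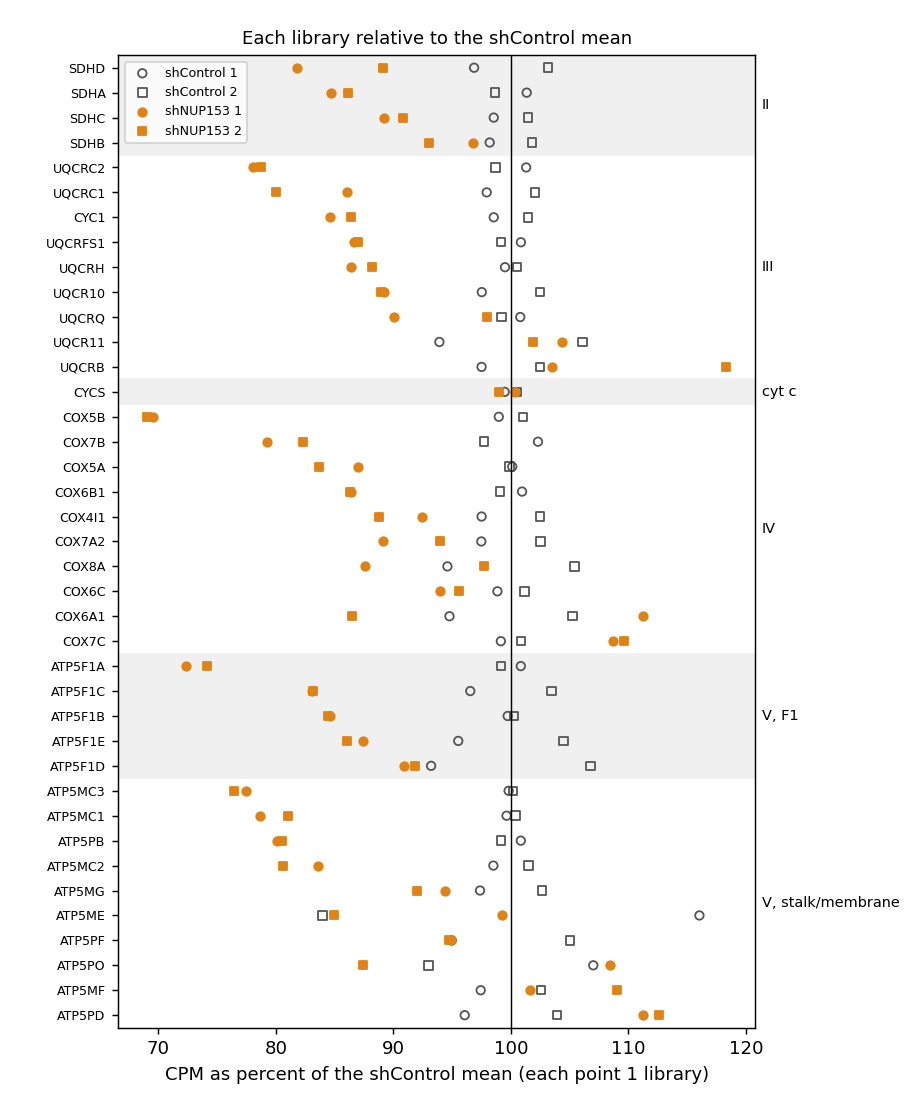
CPM of each library as a percent of the shControl mean (horizontal axis) for the 39 subunit genes, open symbols for shControl and filled for shNUP153, with circles for replicate 1 and squares for replicate 2. For COX5B, ATP5F1A and ATP5MC3 the filled symbols of both libraries lie far left of the open ones, and for CYCS they coincide.

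Mitochondrial DNA encodes the core subunits with which the nuclear ones assemble. Of 6 such genes of complexes III to V, 1 fell and 2 rose, with a median log2 fold change of 0.06. MT-CO3 of complex IV was at 5326 and 5357 CPM in shControl and 4341 and 4834 CPM in shNUP153 (log2 fold change −0.22, adjusted p = 7.83e-05). MT-CYB of complex III was at 3213 and 3443 CPM against 3742 and 4344 CPM (log2 fold change 0.28, adjusted p = 1.43e-05). The groups were separate for both, and the shNUP153 libraries differed from each other by more than the controls did. MT-CO1 was at 15482 and 16781 CPM against 16508 and 19553 CPM (log2 fold change 0.16, adjusted p = 0.00884), with overlapping groups.

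The median was −0.01 without shControl replicate 1 and 0.23 with cyclic loess scaling, which called 0 of the 6 lower and 4 higher and ended the call of MT-CO3 (adjusted p = 0.322). DESeq2 ended the calls of MT-CO1 (0.415) and MT-CYB (0.0631), and MT-CO1 did not pass without shNUP153 replicate 2 (0.652) or with robust fitting (0.102). MT-CO2, MT-ATP6 and MT-ATP8 did not pass (log2 fold changes 0.08, 0.04 and −0.08). MT-CO2 passed as higher with total-count scaling (adjusted p = 0.00308), cyclic loess scaling (2.27e-06), no filter on low counts (0.0371) and a minimum mean of 5 CPM (0.0463). MT-ATP6 passed as higher with cyclic loess scaling (0.00432). Without shControl replicate 2, log2 fold changes were 0.14 for MT-CO2 and 0.12 for MT-ATP6. Without shNUP153 replicate 1, they were 0.15 for MT-CO2, 0.19 for MT-ATP6 and −0.32 for MT-ATP8. Mitochondrial-encoded genes took 5.31% and 5.6% of counts in shControl and 5.77% and 6.59% in shNUP153. The 39 nuclear subunit genes took 0.578% and 0.586% in shControl and 0.531% and 0.524% in shNUP153.

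Of genes around these complexes, a list of TCA cycle enzymes with subunits of pyruvate dehydrogenase was lower in the largest share. The cycle feeds electrons to the chain, and pyruvate dehydrogenase supplies the cycle. Of the 17 genes of this list, all outside complex II, 12 fell (70.6%) and 0 rose, with a median log2 fold change of −0.19. DESeq2 called 11 lower and 0 higher, and 12 and 0 passed an unadjusted p of 0.05. The pyruvate dehydrogenase genes were PDHA1 and DLAT, which fell, and PDHB and PDHX, which did not pass the test. FH, which hydrates fumarate, the product of complex II, was at 265 and 271 CPM in shControl and 172 and 180.1 CPM in shNUP153 (log2 fold change −0.61, adjusted p = 1.31e-12). The succinyl-CoA ligase gene SUCLG2 fell by 0.50 (adjusted p = 1.95e-07), and citrate synthase, CS, fell by 0.34 (adjusted p = 7.34e-07). Without shNUP153 replicate 1, and without shNUP153 replicate 2, 8 of the 17 passed as lower, as with cyclic loess scaling. Differences between this list and the others were not tested.

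Complex I, the NADH dehydrogenase, had 8 of 37 nuclear subunit genes lower (21.6%) and 0 higher. Over all tested genes these shares were 17.4% and 15.0%. The median log2 fold change of the 37 genes was −0.07. With total-count scaling, 7 fell and 2 rose, and without shControl replicate 2 likewise. DESeq2 called 7 lower and 0 higher, and 9 and 1 passed an unadjusted p of 0.05. The 3 with the smallest p were NDUFV1 (log2 fold change −0.27, adjusted p = 3.27e-05) and NDUFS1 (−0.27, adjusted p = 7.44e-05), both core subunits that carry electrons, and NDUFAB1, the mitochondrial acyl carrier protein (−0.25, adjusted p = 3.37e-04). NDUFAB1's call was lost without shNUP153 replicate 2 (0.0605), which left 4 of the 37 genes lower. The lists also differed in abundance, with a median CPM of 45.9 for complex I, 99.4 for the 39 genes and 88.4 for the TCA list. NDUFV2, NDUFA7 and NDUFB8 averaged 1.15, 0.65 and 0.74 CPM in shControl, with SEs of 0.37, 0.45 and 0.40. Whether complexes II to V differed from complex I was not tested, nor was the part of abundance in these shares.

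Assembly factors, which insert cofactors or build the complexes and are not part of them, had mixed directions. For complex IV, 5 of 24 tested fell (20.8%) and 2 rose (8.33%), where 17.4% of all tested genes fell and 15.0% rose. The median log2 fold change of the 24 was 0.04, and DESeq2 called 2 lower and 2 higher. With total-count scaling the balance turned, with 1 lower and 4 higher and a median of 0.10, and of the 5 falls that of LRPPRC passed. SURF1 went from 21.3 and 26.7 CPM to 33.3 and 34.4 CPM (log2 fold change 0.49, adjusted p = 2.84e-05), COA6 rose by 0.37 (adjusted p = 2.04e-04; 0.0694 without shNUP153 replicate 2), and LRPPRC, which stabilises mitochondrial transcripts, fell by 0.20 (adjusted p = 8.38e-04). The other falls were SLIRP, SCO1, CMC1 and COX18, named after their values were seen, with log2 fold changes from −0.29 to −0.17, and each lost its call without shNUP153 replicate 1 (adjusted p from 0.0933 to 0.417) and without shNUP153 replicate 2 (0.06 to 0.201). SCO1 (0.0512) and COX18 (0.178) also lost it without shControl replicate 2, and CMC1 (0.0525) without shControl replicate 1.

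For complex II, 2 of 4 assembly factors fell, SDHAF2, which attaches flavin to SDHA (log2 fold change −0.57, adjusted p = 3.08e-04; 0.0516 without shNUP153 replicate 1), and SDHAF3 (−0.15, adjusted p = 0.0398). The SDHAF3 call ended on leaving out either shNUP153 library (0.317 and 0.126) or shControl replicate 2 (0.133), and with total-count scaling (0.254), cyclic loess scaling (0.119) or DESeq2 (0.124). For complex III, 0 of 7 fell and 2 rose, HCCS, which attaches heme to cytochromes c and c1 (0.22, adjusted p = 0.0243), and UQCC2 (0.21, adjusted p = 0.0342). Their median, 0.001, turned under several alternatives, among them cyclic loess scaling (−0.028) and no filter on low counts (−0.0093). DESeq2 called 0 of the 7 in either direction, 0 lower and 3 higher passed an unadjusted p of 0.05, and both calls were lost without shNUP153 replicate 1 (0.0519 and 0.115) and without replicate 2 (0.341 and 0.328). HCCS did not pass without shControl replicate 2 (0.101), nor UQCC2 without shControl replicate 1 (0.573). For complex V, 0 of 4 were called by edgeR as reported or by DESeq2, and 0 passed an unadjusted p of 0.05. Without shControl replicate 2, ATPAF1 of that list had a log2 fold change of −0.23. The complex III factor UQCC1 passed as higher with total-count scaling (adjusted p = 0.00975), cyclic loess scaling (0.0298) and a minimum mean of 5 CPM (0.0315). COA1 of complex IV did so likewise (0.00707, 0.0242 and 0.0214). COA5 passed as higher with total-count scaling (0.0259) and COX16 as lower with cyclic loess scaling (0.0328).

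Of 6 tested paralogs and further subunits outside the 39, 2 fell and 2 rose. COX7A2L, which takes part in supercomplexes of III and IV, rose by 0.24 (adjusted p = 7.59e-04), and NDUFA4, now counted as a complex IV subunit, fell by 0.13 (adjusted p = 0.0365; 0.262 without shNUP153 replicate 2). UQCRHL, a near-identical copy of UQCRH, fell by 0.35 (adjusted p = 0.00681; 0.219 without shNUP153 replicate 2 and 0.0533 with DESeq2), and reads of the pair could have been split by the counting. The inhibitor of ATP synthase, ATP5IF1, named after its value was seen, rose by 0.16 (adjusted p = 0.0414; 0.481 without shControl replicate 1). NDUFA4 also lost its call without shControl replicate 2 (0.0504) or shNUP153 replicate 1 (0.155), and with total-count scaling (0.309), cyclic loess scaling (0.231) or a minimum mean of 5 CPM (0.0772), and ATP5IF1 without shNUP153 replicate 1 (0.230) or 2 (0.237); with DESeq2 neither passed (0.0891 and 0.126).

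Among 12 tested regulators of respiratory gene transcription, 1 fell and 1 rose, with a median log2 fold change of −0.0004. With total-count or cyclic loess scaling 0 fell and 2 rose, and without shControl replicate 2, 2 fell and 2 rose. ESRRA, an orphan nuclear receptor that activates these genes, was higher, at 208 and 199 CPM in shNUP153 against 161 and 178 CPM in shControl (log2 fold change 0.26, adjusted p = 1.17e-04). PPRC1, a coactivator, fell by 0.16 (adjusted p = 0.0157), and its call was lost on leaving out either shNUP153 library (0.118 and 0.165) or shControl replicate 1 (0.0767) and with total-count (0.16) or cyclic loess scaling (0.103). The factors whose motifs were searched did not pass the test, with log2 fold changes of 0.12 for NRF1, 0.02 for GABPA and 0.07 for YY1, and neither did TFAM, the mitochondrial DNA packaging factor, at −0.03. YY1 passed as higher with total-count (adjusted p = 0.0339) and cyclic loess scaling (0.0446), and TFAM turned to 0.038 and 0.017 under them. Without shControl replicate 2, POLRMT, the mitochondrial RNA polymerase, passed as higher (0.018) and PPARGC1B, a coactivator, as lower (0.0361), both named after their values were seen.

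**Figure D4:**
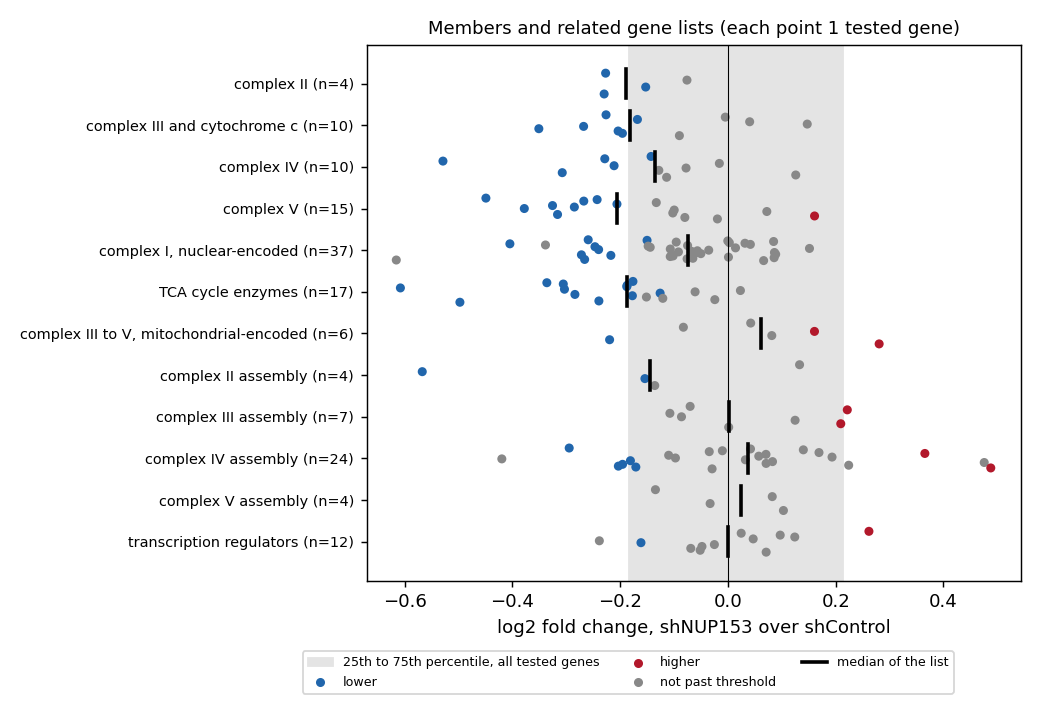
Log2 fold change (horizontal axis, 1 point per tested gene) of complexes II to V and of related gene lists, with a black bar at each list's median and shading from the 25th to the 75th percentile of all tested genes (−0.18 to 0.21). Medians of complexes II (−0.19) and V (−0.21) and of TCA and pyruvate dehydrogenase enzymes (−0.19) lie left of 0. That of the mitochondrial-encoded subunits (0.06) lies right of it.

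Gene models bear on how single genes were counted. Overlaps were taken between whole gene spans of GENCODE v29, introns included. By these spans, 10 of the 39 genes overlap on the opposite strand a gene with at least 100 counts in every library. Among these partners, KCTD2 (with ATP5PD) rose, WDR77 (with ATP5PB) fell by 0.20 (adjusted p = 0.0171; 0.199 without shNUP153 replicate 1 and 0.0813 without replicate 2), HAUS1 (with ATP5F1A) fell by 0.51 (adjusted p = 3.33e-06), and MYL5 (with ATP5ME) rose by 0.50 (adjusted p = 0.00953; 0.139 without shNUP153 replicate 1). The overlap was 3 bp for HAUS1 and 513 bp for WDR77. Of the 39, 5 (SDHD, UQCR11, COX6A1, COX8A and ATP5PO) are crossed on the same strand by a second protein-coding model listed at 0 counts in every library. SDHD and ATP5PO are also among those 10. ATP5MF is crossed on its own strand by PTCD1, with 104 to 124 counts per library, which did not pass the test (log2 fold change 0.04). Of 28 genes with pseudogene rows named after them (144 rows in all), the pseudogenes held over 1% of the gene's counts, summed over the libraries, for SDHA (29.9%), COX6A1 (6.4%), UQCRFS1 (2.19%) and ATP5MC1 (1.16%). The part of these overlaps in the results was not tested.

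**Figure D5:**
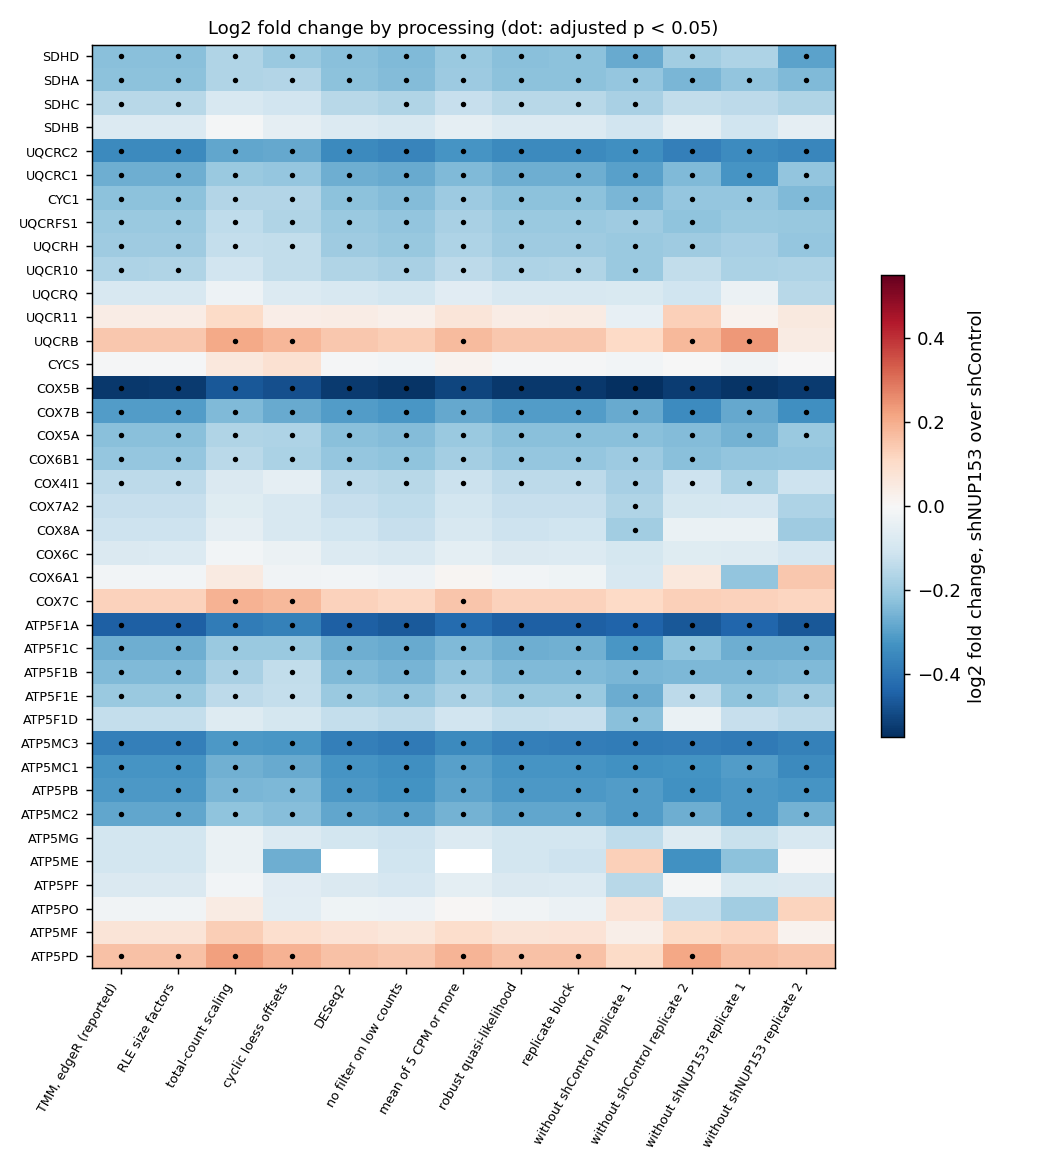
Log2 fold change (colour) of each of the 39 subunit genes (rows) in the reported analysis and in 12 alternatives (columns), with a dot where the adjusted p passed the threshold of 0.05 and white where no value was given. The 15 genes with a blue cell and a dot in every column include COX5B, UQCRC2, ATP5F1A and all 3 ATP5MC genes, and the dots of SDHC, UQCR10 and ATP5PD come and go.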

How the data were processed

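RNA of TE5 cells was sequenced in 2 shControl and 2 shNUP153 libraries. The deposited table held 1 column of whole-number counts per library and gene; its name says FPKM, yet its column totals differ, so they were treated as raw counts. Per the submitters' processing notes, kallisto, DESeq2, Bowtie2, deepTools and hg19 were used, in roles and versions that are not named; no source used here gives the counting step, the annotation or the strand. The authors' deposited log2 ratio and p-value columns were not used, and 0 columns of other samples were present.

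The member genes, the related lists and the tests were chosen with earlier results of these data known. Genes were kept by filterByExpr (minimum count 10, minimum total 15), scaled by TMM and tested, two-sided, with edgeR 4.0.16's quasi-likelihood test (R 4.3.3, limma 3.58.1), adjusted by Benjamini-Hochberg over all 16817 genes, with a threshold of 0.05. The SE is the absolute log2 fold change over the square root of F. The procedure was also run on simulated counts, whose outcome is not given here and is not used as support for the calls. The fit leaves 2 residual degrees of freedom, and its estimate of spread borrows from all genes. Replicates differed by more than sampling noise, with a chi-square per gene of 3.81 in shControl and 3.3 in shNUP153. Levels are CPM with TMM scaling; they are not divided by transcript length.

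By rule, values per library were given for the 4 genes with the smallest p per complex among those that passed, for genes that rose, and for mitochondrial-encoded subunits; of each related list, up to 3 genes past the threshold with the smallest p were named. Values given for other genes were chosen after they were seen. Lists covered mitochondrial-encoded subunits, paralogs, assembly factors of complexes II to V, transcription regulators and complex I. Others were TCA with pyruvate dehydrogenase enzymes, and squamous, fibroblast and leukocyte markers. Lengths and overlaps came from GENCODE v29, in which 98.6% of the table's symbols match by ID; promoters came from RefSeq (GRCh38.p14), by the first start listed. Alternatives were RLE, total-count and cyclic loess scaling, DESeq2 1.42.0, no filter, a mean of 5 CPM, robust fitting, a replicate block and each library left out.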

Additional observations from a re-analysis of the deposited data

How the results depend on the processing

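Of the 39 subunit genes, between 19 and 22 fell under the 8 alternatives that kept every library, and between 16 and 25 with 1 library left out, against 22 as reported. The count that rose, 1 as reported, was 3 with total-count scaling, 3 with cyclic loess scaling, 3 with a minimum mean of 5 CPM, 0 with DESeq2, 0 without the filter, and 0 to 2 with 1 library left out. The median log2 fold change was −0.10 with total-count scaling and −0.20 to −0.15 with 1 library left out. With 1 library left out, falls numbered 1 to 3 in complex II, 3 to 6 in complex III with cytochrome c, 3 to 7 in complex IV and 8 to 9 in complex V. Over all tested genes, 1769 to 2874 fell and 1303 to 2327 rose with 1 library left out, and DESeq2 called 1442 higher. In the related lists together (117 genes, 31 lower and 9 higher), 20 fell and 16 rose with total-count scaling, 14 rose with cyclic loess scaling, 4 rose with DESeq2, and 15 to 33 fell and 4 to 15 rose with 1 library left out. Leaving out a library leaves 1 in its group, which is assumed to vary like the other group, so part of each loss goes with fewer samples; other causes were not tested.

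Among the 39 genes, the mitochondrial-encoded subunits, list genes that passed the test, and NRF1, GABPA, YY1, TFAM and TP63, signs turned for 9, and none of these had passed the reported test. With total-count scaling, CYCS was 0.058, COX6A1 0.048, ATP5PO 0.044 and TFAM 0.038. With at least 5 CPM on average, CYCS was 0.021, COX6A1 0.010, ATP5PO 0.0071 and TFAM 0.00082, and with cyclic loess scaling CYCS was 0.084 and TFAM 0.017. Signs of other list genes were not compared one by one. With 1 library left out, UQCR11 ran from −0.043 to 0.13, CYCS from −0.018 to 0.0033, COX6A1 from −0.22 to 0.15, ATP5PO from −0.19 to 0.12, ATP5ME from −0.33 to 0.13, MT-ATP6 from −0.12 to 0.19, TFAM from −0.061 to 0.000195, GABPA from −0.087 to 0.12 and MT-ATP8 from −0.32 to 0.11.

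Deviations of same-numbered libraries from their group means correlated at −0.0102 over 16817 genes. This single correlation showed no shared shift by replicate number, but it cannot show that the libraries were unpaired. With the replicate number as a block, 22 subunit genes fell and 1 rose, and over all genes 2935 fell and 2530 rose. Low counts limited the measure of ATP5ME, with 18 to 23 per library.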
